A study of Mus musculus with 2 samples.

Results

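The cells described here are aortic leukocytes that pass a gate on Thbs1, F10, Clec4e, Chil3 and Osm, and they numbered 82 of the 2957 cells kept. A cell passed if its unique molecular identifiers (UMIs, each counting 1 captured RNA molecule) of these 5 genes summed to at least 3 and it held at least 3 UMIs of Lyz2. It also held at most 4 UMIs of C1qa, C1qb and C1qc together, at most 1 of Cd209a, at most 2 of Cd3d, Cd3e and Cd3g together, and at most 2 of Cd79a, Cd79b and Ms4a1 together. The WD library gave 61 gated cells of 2061 kept, and the chow library gave 21 of 896. Both groups were ApoE-/- mice of the C57BL6/J strain, which lack apolipoprotein E, and differed by diet, WD in one group and chow in the other. Aortas were digested with enzymes, live CD45+ cells were sorted, and the cells of 10 aortas were pooled into a single 10x Genomics 3' library for each diet. Age, sex and the time on diet are not in the labels used here, and no ApoE+/+ mice were analysed here.

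Each diet has 1 library, so no test between diets was possible. Cells of 1 library are not replicates, and every interval below covers counting error only. The kept cells came from 2077 WD barcodes with 8782901 UMIs and 909 chow barcodes with 4608033 UMIs. The libraries shared 3 barcode sequences, 0 of them among the gated cells. Scrublet called 2 doublets in each library, 0 of them gated. This was 0.0970% of WD and 0.223% of chow cells, below the expected 1.65% and 0.717%, so doublets may remain. Gated cells had a median of 5444 UMIs and 1695 genes in WD and 5392 UMIs and 1771 genes in chow.

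Monocytes are made in the bone marrow, circulate in blood and enter inflamed tissue, where they can become macrophages or antigen-presenting cells. In the mouse the classical form carries Ly6C and the chemokine receptor CCR2. In atherosclerosis such cells enter the artery wall and contribute to the macrophages of the plaque. Of the gate genes, Thbs1 encodes thrombospondin 1, a matrix glycoprotein that can activate latent TGF-beta. F10 encodes coagulation factor X, which is cleaved to the protease that makes thrombin. Clec4e encodes Mincle, a C-type lectin receptor that signals through the Fc receptor gamma chain. Osm encodes oncostatin M, a cytokine of the interleukin 6 family. Chil3 encodes a chitinase-like secreted protein of mouse myeloid cells.

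The gated cells were of more than one kind. A total of 10 cells, 8 of 61 in WD (13.1%, exact interval 5.84 to 24.2%) and 2 of 21 in chow (9.52%, 1.17 to 30.4%), were rich in S100a8 and S100a9, which encode the calcium-binding proteins abundant in neutrophils. S100a8 and S100a9 UMIs together ranged over 679 to 3330 in the WD cells, with a median of 1810, and were 436 and 1001 in the chow cells. The highest value among the other 72 gated cells was 52 UMIs and the next was 1, so the limit of 100 UMIs, set after seeing the data, fell in a wide gap. The neutrophil granule genes Camp, Ngp, Ltf and Lcn2 summed to 103 to 1636 UMIs in the 8 WD cells, with a median of 857.5, and to 0 and 91 UMIs in the 2 chow cells. Retnlg, a resistin-like gene of mouse neutrophils, held 0 to 157 UMIs in the WD cells and 85 and 264 UMIs in the chow cells. Monocyte genes were mixed in these cells. Csf1r, the receptor for the macrophage growth factor CSF1, held 5 UMIs over 3 of the 8 WD cells and 0 UMIs in the chow cells. Ly6c2, which encodes the Ly6C antigen of classical monocytes, was detected in all 8 WD cells with 108 UMIs (4 to 38 per cell, median 9) and in 1 of the 2 chow cells with 4 UMIs. In WD this was 1838 CPM (UMIs per 1000000 UMIs of the class), against 979 CPM in the other gated WD cells. These 10 cells passed the gate in WD mainly through Chil3, with 286 UMIs at 7 to 81 per cell, and in chow through Thbs1, with 27 UMIs and no Chil3. The markers of these 10 cells thus went mostly against the label monocyte-like. The cells held many UMIs of neutrophil genes and few of Csf1r, although Ly6c2 was found in all 8 WD cells. They are called S100a8-rich below, and the other 72, 53 in WD and 19 in chow, are called S100a8-low.

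**Figure D1:**
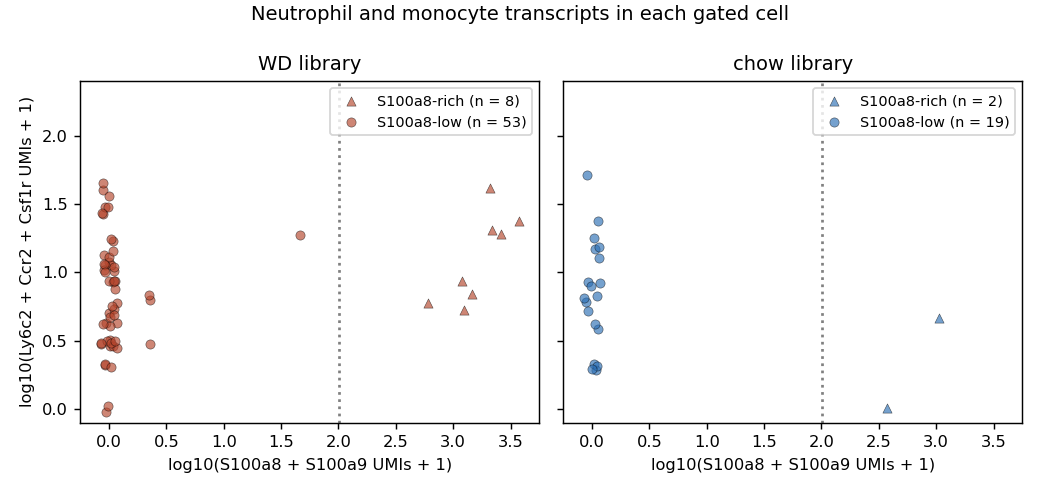
Each point is 1 gated cell, with its summed UMIs of S100a8 and S100a9 and its summed UMIs of the monocyte genes Ly6c2, Ccr2 and Csf1r, by diet (log10 axes, 1 UMI added). The 10 S100a8-rich cells hold at least 436 UMIs of S100a8 and S100a9, against at most 52 UMIs in the 72 S100a8-low cells.

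A clustering of all kept cells, in which the gated cells took part, placed the 2 kinds apart. All 10 S100a8-rich cells lay in cluster 8, a cluster of 23 cells led by S100a8, S100a9, Ngp and Tyrobp. Of the 72 S100a8-low cells, 69 lay in cluster 10, which held 120 cells led by Lyz2, Lgals3, Fcer1g and Ifitm3. The other 3 lay in cluster 0, led by Cd74 and H2-Aa. Because the gate was made on these cells, their place in the clusters is a description.

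Of the monocyte genes that the gate did not use, Csf1r and Ccr2 were found in most S100a8-low cells and Ly6c2 in most WD cells. Csf1r was detected in 38 of 53 WD cells with 92 UMIs and in 18 of 19 chow cells with 48 UMIs. Ly6c2 was detected in 33 WD cells with 285 UMIs and in 9 chow cells with 76 UMIs, and reads may be shared with its near copy Ly6c1. Ccr2 was detected in 36 WD cells with 130 UMIs and in 13 chow cells with 54 UMIs. The 3 genes together had a median of 6 UMIs per cell in each library. In cells that failed the C1q limit alone the median was 6 in WD and 8 in chow. It was the same in cells that failed the Cd209a limit alone. These cells were deeper, with medians of 7343 and 7957 UMIs over both libraries. The sum of the 3 genes thus did not set the S100a8-low cells apart from them. Some cells of either library held none of a given marker. In B cells, read as a measure of free RNA, Csf1r was detected in 4 of 496 WD and 3 of 150 chow cells, Ly6c2 in 10 and 4, and Ccr2 in 9 and 0.

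Summed over all gated cells, the neutrophil list held 22670 UMIs in WD and 1984 in chow, nearly all in the S100a8-rich cells. Genes of Trem2 foam cell macrophages, many of which other macrophages and monocytes also express, held 3867 and 1019 UMIs. Resident macrophage markers held 403 UMIs in WD and 134 in chow. Markers of conventional dendritic cells held 164 and 72 UMIs for type 2 and 81 and 34 for type 1. Plasmacytoid dendritic cell markers held 70 and 32 UMIs. Fewer UMIs were held by platelet markers, with 1 in WD and 0 in chow, red cell markers, with 4 and 0, and stromal markers, with 12 and 7. T cell markers held 24 and 15 UMIs, and B cell markers 10 and 2. The gate itself limits the T and B cell genes. In the S100a8-low cells the neutrophil list still held 114 UMIs in WD and 21 in chow. There 7 of its 16 genes were at 0 in WD and 10 were at 0 in chow. The part of these transcripts in the results below was not tested.

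The neighbouring pairs Clec4e with Clec4d and S100a8 with S100a9 each hold a gene used here to choose or divide the gated cells, Clec4e in the gate and S100a8 and S100a9 in the split, so the 250 bases before each gene's start are shown, from RefSeq on GRCm38.p6 (the submitters' processing notes name mm10). Capitals mark a match to the C/EBP motif TTGCNNAA on either strand. The windows are Clec4e at chr6:123289872-123290121 (minus strand), Clec4d at chr6:123261857-123262106 (plus strand), S100a8 at chr3:90668821-90669070 (plus strand) and S100a9 at chr3:90695722-90695971 (minus strand).
Clec4e: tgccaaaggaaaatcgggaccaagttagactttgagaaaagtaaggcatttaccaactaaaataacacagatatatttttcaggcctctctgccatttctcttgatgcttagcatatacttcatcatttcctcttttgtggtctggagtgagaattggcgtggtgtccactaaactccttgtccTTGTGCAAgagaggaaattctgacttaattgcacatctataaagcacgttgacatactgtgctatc
Clec4d: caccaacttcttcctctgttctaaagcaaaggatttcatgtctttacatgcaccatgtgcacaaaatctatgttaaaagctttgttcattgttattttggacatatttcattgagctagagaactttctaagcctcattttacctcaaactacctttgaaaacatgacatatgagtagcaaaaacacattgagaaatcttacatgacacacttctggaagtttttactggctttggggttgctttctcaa
S100a8: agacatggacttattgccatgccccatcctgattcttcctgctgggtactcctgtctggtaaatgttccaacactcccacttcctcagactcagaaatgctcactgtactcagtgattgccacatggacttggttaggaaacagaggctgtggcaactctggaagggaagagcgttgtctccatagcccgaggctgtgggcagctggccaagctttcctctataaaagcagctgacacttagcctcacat
S100a9: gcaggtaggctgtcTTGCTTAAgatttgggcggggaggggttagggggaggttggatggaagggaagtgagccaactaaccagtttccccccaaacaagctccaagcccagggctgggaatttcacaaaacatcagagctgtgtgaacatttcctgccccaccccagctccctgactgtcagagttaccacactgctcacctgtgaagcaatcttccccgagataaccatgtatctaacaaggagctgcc
The starts of Clec4e and Clec4d lie 27765 bases apart, and those of S100a8 and S100a9 lie 26651 bases apart. The C/EBP match begins 66 bases before the start of Clec4e and 236 bases before the start of S100a9, and neither Clec4d nor S100a8 holds one in its window. The AP-1 motif TGANTCA, read on either strand, was in none of the 4 windows. Over all 32851 RefSeq promoters of the same length used here, 9.56% held the C/EBP motif and 6.75% the AP-1 motif. A match is a description of the letters and not of binding. Of the 8 genes looked up, 6 were in the promoter table, and Thbs1 and Osm were not. The windows of the gate genes F10 and Chil3, which are not shown, held 0 matches to either motif.

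The gate genes varied widely from cell to cell, and since they chose the cells their values are given as a description. In the S100a8-low cells Thbs1 held 455 UMIs in WD (0 to 72 per cell, median 3) and 130 UMIs in chow (0 to 44, median 1). F10 held 225 UMIs in WD (0 to 19 per cell, median 3) and 52 UMIs in chow (0 to 18, median 1). Clec4e held 337 UMIs in WD (0 to 40 per cell, median 3) and 139 UMIs in chow (0 to 49, median 3). Osm held 430 UMIs in WD (0 to 74 per cell, median 3) and 50 UMIs in chow (0 to 21, median 1). Chil3 held 209 UMIs in WD (0 to 20 per cell, median 1) and 21 UMIs in chow (0 to 11, median 0), and reads may be shared with its near copy Chil4. For each of the 5 genes the ranges over cells overlapped between diets. Scaled to the UMIs of the class, Osm and Chil3 were higher in WD, at 1477 and 718 CPM, against 479 and 201 CPM in chow. Over all gated cells the log2 ratios of WD over chow were 1.40 for Osm and 2.87 for Chil3. The other 3 gate genes differed less there, at 0.49 for F10, -0.09 for Thbs1 and -0.32 for Clec4e. The sign for Thbs1 depended on the cells read: its log2 ratio was 0.33 with the S100a8-rich cells left out, and 14 of 19 alternative settings kept the sign.

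All 5 gate genes were detected in 16 of 53 WD cells and in 4 of 19 chow cells. A single gate gene was detected in 6 WD cells and in 1 chow cell. Thbs1 and F10, the genes that name the class, were found together in 29 of 53 WD cells and in 7 of 19 chow cells. Neither was found in 4 WD cells and in 2 chow cells, so the class is not defined by this pair alone.

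Since the gate asks for UMIs of these genes, their shares of cells with a UMI are set by the rule and are a description. B cells, which should lack the genes, give the background. Thbs1 was detected in 69.8% of WD S100a8-low cells (37 of 53, exact interval 55.7 to 81.7%) and in 57.9% of chow cells (11 of 19, 33.5 to 79.7%). It was detected in 0 of 496 WD B cells, which allows a share of up to 0.605%, and in 3 of 150 chow B cells (2.00%). Median depths were 5385 UMIs in WD and 5409 in chow S100a8-low cells, against 2456 and 2840 UMIs in the B cells. After each cell was thinned to 1000 UMIs, Thbs1 was found in 43.4% of WD and 36.8% of chow S100a8-low cells, against 0% of WD and 0.667% of chow B cells. F10, detected in 77.4% of WD and 68.4% of chow S100a8-low cells, had 0 UMIs in B cells of either library.

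**Figure D2:**
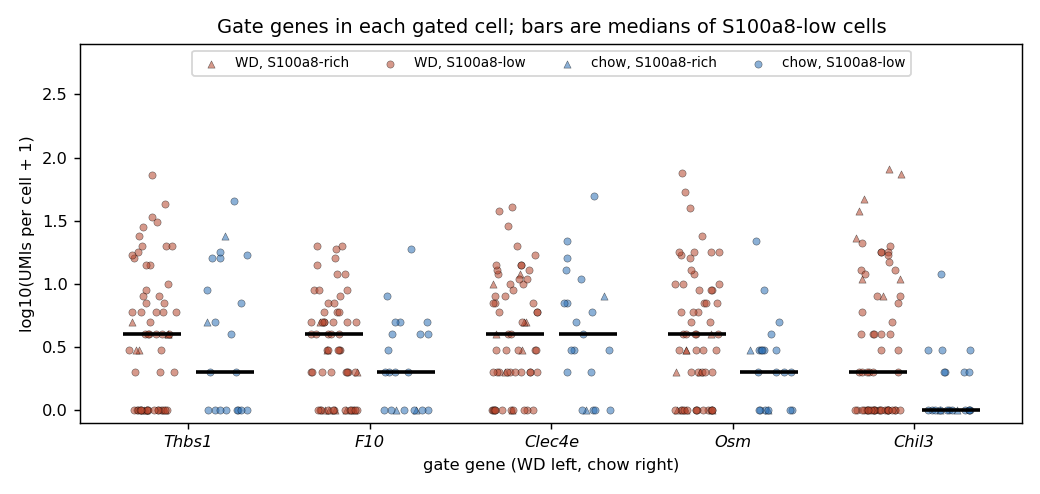
UMIs per cell of the 5 gate genes in S100a8-rich and S100a8-low gated cells, by diet (log10 axis, 1 UMI added), with each point 1 cell and bars at the medians of S100a8-low cells. In S100a8-low cells Thbs1 reaches 72 UMIs in WD and 44 in chow, with medians of 3 and 1.

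The S100a8-low cells also differed among themselves in MHC class II genes, which present peptides to CD4+ T cells. Cells with at least 50 UMIs of H2-Aa, H2-Ab1 and Cd74 together, a limit set after seeing the data that fell between 29 and 69 UMIs, made up 19 of 53 in WD (35.8%, 23.1 to 50.2%) and 6 of 19 in chow (31.6%, 12.6 to 56.6%). In WD, Ly6c2 stood at 214 CPM in the MHC class II-rich cells and 1424 CPM in the others. In chow it stood at 51 CPM (2 UMIs in 6 cells) and 1135 CPM. Ly6c2 was thus lower in the MHC class II-rich cells of both libraries. Ccr2 differed less, at 345 and 506 CPM in WD and at 434 and 568 CPM in chow. Csf1r was at 280 and 337 CPM in WD and at 408 and 491 CPM in chow. Thbs1 did not follow one order: in WD it was lower in the MHC class II-rich cells, at 718 against 2055 CPM, and in chow it was higher, at 2246 against 644 CPM. Cd209a, the dendritic cell gene that the gate limits, held 1 UMI in the MHC class II-rich cells of each library, against 2 UMIs in WD and 0 in chow in the others.

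**Figure D3:**
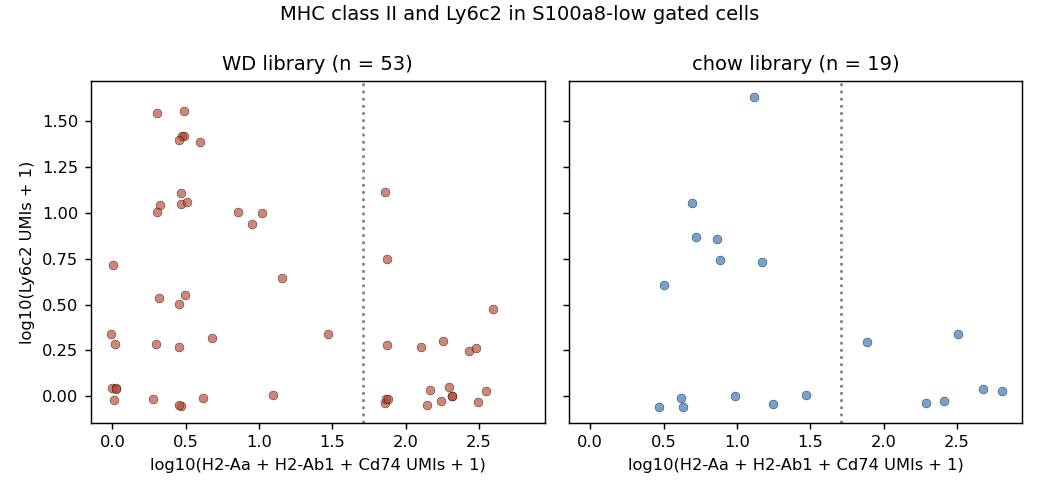
Each point is 1 S100a8-low gated cell, with its summed UMIs of H2-Aa, H2-Ab1 and Cd74 and its UMIs of Ly6c2 (log10 axes, 1 UMI added), by diet. The 19 WD and 6 chow cells at or above 50 UMIs of the 3 genes hold 23 and 2 UMIs of Ly6c2 in all, against 262 and 74 UMIs in the 34 WD and 13 chow cells below.

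The shares of gated cells in the libraries had overlapping intervals. They were 2.96% of kept WD cells (2.27 to 3.79%) and 2.34% of kept chow cells (1.46 to 3.56%), and the difference was not tested. Without the S100a8-rich cells the shares were 2.57% (1.93 to 3.35%) in WD and 2.12% (1.28 to 3.29%) in chow. Thymocyte-like cells, with at least 2 UMIs of Dntt, Rag1 and Rag2 together, were then left out of the kept cells. All gated cells were then 3.34% in WD (61 of 1829, 2.56 to 4.26%) and 3.02% in chow (21 of 695, 1.88 to 4.58%). Among all cells with Lyz2, C1q or Cd209a, gated cells were 16.4% in WD (61 of 372, 12.8 to 20.6%) and 19.6% in chow (21 of 107, 12.6 to 28.4%). C1q macrophages, defined by at least 5 UMIs of the C1q genes, were 9.90% of kept WD cells and 5.13% of kept chow cells, with the thymocyte-like cells included. These are shares of sorted cells and not numbers of cells in the aorta.

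Cells near the limits of the gate were counted. With a gate sum of 3, just inside, there were 4 WD and 4 chow cells, with a median of 68.5 UMIs of Lyz2 over both libraries. With a gate sum of 2, just outside, there were 1 WD and 2 chow cells, with a median of 114 UMIs of Lyz2. Other cells failed a single limit: 45 failed the C1q limit, with a median of 94 C1q UMIs, and 9 failed the Cd209a limit. The limit on T or B cell genes alone kept out 15 cells, with a median depth of 10476 UMIs. The Lyz2 limit alone kept out 6 cells with 1 or 2 UMIs of Lyz2 and 9 cells with 0.

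Against C1q macrophages, the S100a8-low cells were higher in some classical monocyte genes and lower in most resident macrophage genes. Of 2521 genes measured, 116 (4.6%) were at least 2-fold higher and 154 (6.11%) at least 2-fold lower in both libraries. With the S100a8-rich cells kept, 109 of 2548 genes (4.28%) were higher and 178 (6.99%) lower. Since the gate limits the C1q genes and the cells were chosen on this difference, the genes are a description. Of 13 measured classical monocyte genes, 6 were higher and 1 lower, with a median log2 difference of 0.84 in WD and 0.88 in chow. Of 6 nonclassical monocyte genes, 1 was higher and 0 lower, with a median of -0.36 in WD and 0.36 in chow. Of 14 resident macrophage genes, 12 were lower and 0 higher, with a median of -4.92 in WD and -3.24 in chow once genes at 0 were set to a floor of 3 UMIs.

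Single genes show the contrast. Hp, which encodes the hemoglobin-binding protein haptoglobin, held 73 UMIs in WD S100a8-low cells against 8 in WD macrophages, and 24 UMIs in chow against 1. Plac8 held 1094 UMIs in WD against 250, and 336 UMIs in chow against 24. Slpi, a secreted inhibitor of leukocyte proteases, held 247 UMIs in WD against 2, and 28 UMIs in chow against 1. All 3 genes were higher in the S100a8-low cells, although these held fewer UMIs in all, 291204 in WD and 104358 in chow, against 1091916 and 300655 in the macrophages. Folr2, the folate receptor beta of resident macrophages, held 0 UMIs in S100a8-low cells of either library, against 438 UMIs in WD and 105 in chow macrophages, and was at least 38.9-fold lower in WD and at least 12.1-fold lower in chow. Pf4, which encodes platelet factor 4 and is also read in resident macrophages, held 0 UMIs in WD and 1 UMI in chow, against 1145 and 421 UMIs. Among coagulation genes, 4 of 6 were higher and 1 lower, with a median of 1.21 in WD and 1.5 in chow, F10 itself being a gate gene. Of 11 inflammatory cytokine and inflammasome genes, 4 were higher and 0 lower. Of 14 immediate early and dissociation-induced genes, 0 were higher and 7 lower, with medians of -0.98 in WD and -1.34 in chow.

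Against Cd209a dendritic cells, defined by at least 2 UMIs of Cd209a, the S100a8-low cells were high in lysosomal and foam cell genes and low in MHC class II genes. Of 1801 genes measured, 150 (8.33%) were at least 2-fold higher and 69 (3.83%) at least 2-fold lower in both libraries. With the S100a8-rich cells kept, 153 of 1834 (8.34%) were higher and 72 (3.93%) lower. Of 16 lysosomal and antimicrobial genes 9 were higher and 0 lower, and of 10 genes of Trem2 foam cell macrophages 7 were higher and 0 lower. The lysosomal list holds Lyz2, which the gate asks for, and the gate limits Cd209a, so these counts are a description. Against C1q macrophages, 2 of 17 lysosomal and antimicrobial genes were higher and 1 lower, with medians of 0.16 in WD and 0.15 in chow. There 1 of 13 foam cell genes was higher and 3 were lower, with medians of 0.02 and -0.31. Of 9 MHC class II genes 0 were higher and 7 lower, with a median of -2.42 in WD and -1.80 in chow.

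Gpnmb, a glycoprotein of lipid-loaded macrophages, held 51 UMIs in WD and 14 in chow S100a8-low cells and 0 UMIs in dendritic cells of either library, and was at least 29.5-fold higher in WD and at least 7.77-fold higher in chow. Pla2g7, which encodes a phospholipase carried on lipoproteins, held 82 UMIs in WD against 1 in dendritic cells, and 23 in chow against 0. Clec4d, a C-type lectin encoded beside Clec4e, held 132 UMIs in WD against 9, and 57 UMIs in chow against 3. These genes were thus higher in both libraries. Flt3, the growth factor receptor of dendritic cells, held 0 UMIs in S100a8-low cells, against 37 UMIs in WD and 13 in chow dendritic cells. Mgl2, a C-type lectin of that dendritic cell type, held 5 UMIs in WD and 0 in chow S100a8-low cells, against 254 and 47 UMIs. The WD dendritic cell class held 1 cell with 1522 UMIs of S100a8, and the part of such cells was not tested.

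**Figure D4:**
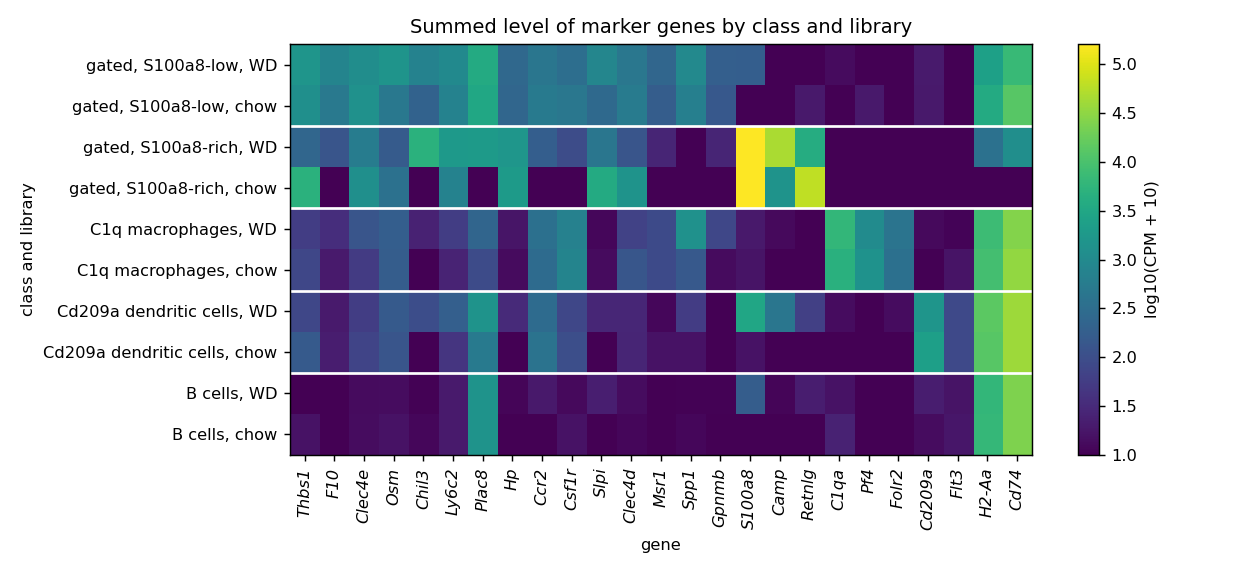
Summed levels of marker genes (columns) in gated S100a8-low and S100a8-rich cells, C1q macrophages, Cd209a dendritic cells and B cells of each library (rows), with colour giving log10 of the CPM plus 10. F10 stands at 773 CPM in WD and 498 CPM in chow S100a8-low cells, against 25.6 and 9.98 CPM in C1q macrophages.

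Between the diets, most genes of the gated cells differed by less than 2-fold. Of 2651 genes with at least 20 UMIs in gated cells, 182 (6.87%) were at least 2-fold higher in WD and 176 (6.64%) at least 2-fold lower. Without the S100a8-rich cells, 169 of 2424 (6.97%) were higher and 120 (4.95%) lower, with a median log2 ratio of 0.00 over all genes. With 1 library per diet these counts have no replicate check, and diet, library and batch cannot be told apart. The highest ratios over all gated cells were of neutrophil genes: Camp, which encodes the antimicrobial peptide cathelicidin, held 2784 UMIs in WD against 8 in chow over all gated cells, and 0 UMIs in the S100a8-low cells of either library. The values that follow are for S100a8-low cells.

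Several chemokine genes stood higher in WD. Of 10 measured, 6 were at least 2-fold higher and 1 lower, against 6.97% and 4.95% of all genes, with a median log2 ratio of 1.34. Ccl2, the ligand of CCR2 that attracts monocytes, held 285 UMIs in 32 of 53 WD cells (up to 93 in a cell) and 9 UMIs in 4 of 19 chow cells (up to 4), a ratio of 11.3 (5.89 to 25.1). Ccl4, an inflammatory chemokine, held 661 UMIs in 26 WD cells and 30 UMIs in 6 chow cells, a ratio of 7.90 (5.48 to 11.8), and 265 of the WD UMIs lay in 1 cell. The ranges over cells overlapped for both genes, since cells without a UMI were present in each library. Ccl3, another inflammatory chemokine, held 353 UMIs in WD and 46 in chow, a ratio of 2.75 (2.02 to 3.83). Cxcl10, an interferon-induced ligand of CXCR3, held 103 UMIs in 10 WD cells, with 43, 21 and 20 UMIs in the top cells, and 0 UMIs in chow. Counted by UMIs, it was at least 12.3-fold higher in WD. Counted by cells, it was found in 18.9% of WD cells, and 0 of 19 chow cells allows a share of up to 15.8%. Cxcl1 held 37 UMIs in WD and 3 in chow, a ratio of 4.42 (1.40 to 22.4), and 36 of the WD UMIs lay in 1 cell.

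Not all chemokine genes followed. Cxcl2, a ligand of the neutrophil receptor CXCR2, held 2779 UMIs in WD and 1073 UMIs in chow, a ratio of 0.928 (0.865 to 0.997). Ccl6 held 323 UMIs in WD and 233 UMIs in chow, a ratio of 0.497 (0.418 to 0.591). Summed over the list, a WD cell held 2 to 644 chemokine UMIs with a median of 55, and a chow cell held 2 to 328 with a median of 42, so the ranges overlapped. When the cell with the most UMIs of each gene was left out, the median of the list was 0.33 and 4 genes were at least 2-fold higher. In C1q macrophages the median of the same list was 0.03 over 15 genes, and in B cells it was 1.98 over 5 genes. In Cd209a dendritic cells it was 0.55 over 8 genes, with 3 at least 2-fold higher in WD and 3 lower. Ccl4 was also higher in WD in B cells, with a log2 ratio of 2.16, and in Cd209a dendritic cells, at 2.05. Over all kept cells outside the gate, the ratios of WD over chow were 2.06 for Ccl3 and 1.71 for Ccl4. In S100a8-low cells they were 2.75 and 7.90. Higher Ccl3 and Ccl4 in WD was thus not limited to the gated cells.

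**Figure D5:**
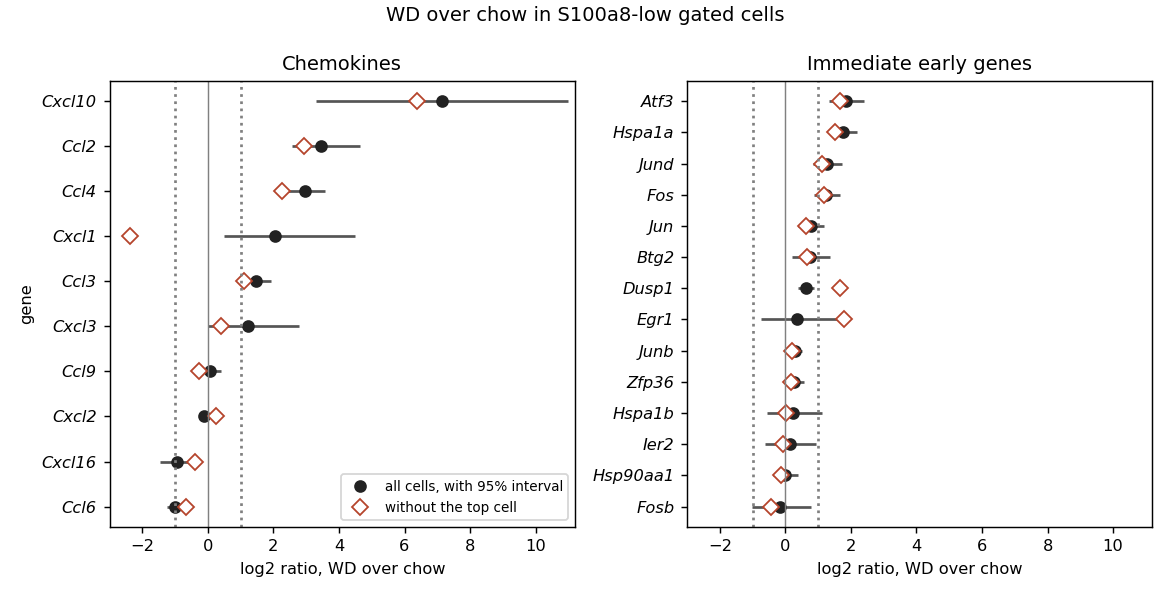
WD over chow log2 ratios in S100a8-low gated cells for chemokine genes and for immediate early and dissociation-induced genes, titled Immediate early genes in the panel. Points carry exact conditional 95% intervals that cover counting error only, and diamonds leave out the cell with the most UMIs of the gene. Dotted lines mark 2-fold; the point of Cxcl10, at 0 UMIs in chow, depends on the 0.5 UMIs added and its interval has no upper end. Ccl2 lies at 3.47 and Ccl4 at 2.97, while Cxcl2 lies at -0.11 and Ccl6 at -1.01.

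Stress-induced genes formed a second group. Of 14 immediate early and dissociation-induced genes, 4 were higher in WD and 0 lower, against 6.97% and 4.95% of all genes. Their median log2 ratio was 0.48. The list holds immediate early genes, which cells switch on within minutes of stimulation or tissue digestion, and heat shock genes such as Hspa1a. Atf3, a stress-induced transcription factor, held 352 UMIs in WD and 35 in chow, a ratio of 3.60 (2.54 to 5.26). Hspa1a, which encodes a heat shock protein, held 500 UMIs in WD and 53 in chow, a ratio of 3.38 (2.54 to 4.58). Fos held 433 UMIs in WD and 65 in chow, a ratio of 2.39 (1.84 to 3.15). Others such as Junb, with a ratio of 1.23 (1.06 to 1.42), and Hsp90aa1, at 0.999 (0.770 to 1.31), stayed under 2-fold. The same list had medians of 0.11 in C1q macrophages, -0.08 in Cd209a dendritic cells, where 0 genes were higher and 2 lower, and -0.19 in B cells. The part of tissue handling in these values was not tested.

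Among the remaining genes higher in WD, Osm had a ratio of 3.08 (2.30 to 4.22) and Chil3 of 3.57 (2.27 to 5.88), both gate genes. Inhba, which encodes the activin A subunit, held 115 UMIs in 10 WD cells, 69 of them in 1 cell, and 1 UMI in chow, a ratio of 41.2 (7.25 to 1642). Slpi had a ratio of 3.16 (2.13 to 4.86), and Cd9, a tetraspanin, held 103 UMIs in WD and 11 in chow, a ratio of 3.36 (1.80 to 6.93). Ptgs2, the inducible cyclooxygenase, held 231 UMIs in WD and 39 in chow, a ratio of 2.12 (1.51 to 3.06). Each of these genes had UMIs in cells of both libraries. Trmt112, a cofactor of methyltransferases, held 47 UMIs in 29 WD cells and 1 UMI in chow, a ratio of 16.8 (2.88 to 679).

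Among the genes lower in WD, Ear2, an eosinophil-associated ribonuclease of a family with near copies, held 13 UMIs in WD and 32 in chow, a ratio of 0.146 (0.0701 to 0.285), and 18 of the chow UMIs lay in 1 cell. Klf2, a transcription factor of quiescent leukocytes, held 34 UMIs in WD and 37 in chow, of which 18 lay in 1 cell. Over all gated cells its log2 ratio was -1.59, and -0.91 without the top cell. Gm6133 and Rpl6l, which have pseudogene-like near copies, were also lower in WD in the cells outside the gate, with log2 ratios of -1.25 and -1.16. Their ratios in gated cells cannot be told apart from a difference between the libraries.

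Monocyte and other lists were read the same way, against 6.97% of all genes higher and 4.95% lower. Of 16 classical monocyte genes, 2 were higher in WD and 0 lower, with a median of 0.11. Mgst1, a glutathione transferase and 1 of these, held 68 UMIs in WD and 10 in chow, a ratio of 2.44 (1.25 to 5.31). Of 6 nonclassical monocyte genes, 0 were higher and 2 lower, Ear2 and the transcription factor gene Pou2f2, with a median of -0.97. Of 6 coagulation genes and 8 MHC class II genes, 0 passed 2-fold in either direction, with medians of 0.12 and -0.45. Cd74, the MHC class II chaperone, held 1980 UMIs in WD and 1339 in chow, a log2 ratio of -0.92. Of 13 inflammatory cytokine and inflammasome genes, 1 was higher, Ptgs2, and 3 were lower, Il10, Il1a and Casp1, with a median of 0.19. Il10 held 13 UMIs in WD and 14 in chow, Il1a held 18 and 14, and Casp1 held 15 and 12. Il1a turned direction without its top cell, since 12 of its chow UMIs lay in 1 cell, with a log2 ratio of -1.09 with that cell and 1.49 without it. Il1b, which encodes interleukin 1 beta, held 1134 UMIs in WD and 323 in chow, a ratio of 1.26 (1.11 to 1.43).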

How the data were processed

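The deposited matrices hold raw UMI counts by gene and barcode, made by the authors from 10x Genomics 3' libraries. Per the submitters' processing notes, Cell Ranger, STAR and mm10 were used, with no version number among the sources used here. Barcodes with at least 200 genes and at most 10% mitochondrial UMIs were kept. Counts were summed over the gated cells of each library and scaled to 1000000 UMIs of the class (CPM). Shares carry exact Clopper-Pearson and sums exact Poisson intervals at 95%, and ratios of WD to chow carry exact conditional intervals. For log2 ratios 0.5 UMIs were added, weighted by library total. A gene entered the diet ratios with 20 or more UMIs over both libraries, and class differences for genes with at least 20 UMIs over both classes in each library. A gene at 0 in 1 library was given a bound from a floor of 3 UMIs per library. Clustering in scanpy 1.11.5 scaled cells to 10000 UMIs and used 2000 variable genes, 30 components, 15 neighbours and a Leiden resolution of 1. Work was done in python 3.11.15 with numpy 2.4.6, scipy 1.17.1, pandas 2.3.3 and matplotlib 3.10.9. The ratio calculation was tested on simulated data.

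Genes named are the gate genes, the 12 highest and 12 lowest diet ratios with at least 30 UMIs, UMIs in at least 5 cells and an interval without 1, those highest or lowest against the other classes, and members of 36 gene lists. Others were chosen with their values known. The gated cells and lists were chosen with earlier results of these data known, and the S100a8 and MHC class II limits after seeing the cells. No test was made between diets, since each has 1 library. Symbols were read by gene ID, with 27645 of 27998 matched, and Cebpd, Clec7a and Itgam were not analysed here. The values of 1 listed gene are not reported here.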

Additional observations from a re-analysis of the deposited data

Results flagged for a closer look

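The WD over chow difference of Ccl2 went the opposite way in 2 classes of cells. Its log2 ratio was 3.28 in all gated cells, with 285 UMIs in WD and 9 in chow, and -1.31 in Cd209a dendritic cells, with 43 UMIs in WD and 37 in chow. Ddit4, a gene induced by stress and glucocorticoids, had a log2 ratio of 2.33 in all gated cells, with 35 UMIs in WD, 18 of them in 1 cell, and 2 in chow, and 1.35 without the top cell. In C1q macrophages its log2 ratio was -1.80, with 12 UMIs in each library. Each class has 1 library per diet, and the differences between classes were not tested.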

How the results depend on the processing

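No paired analysis was possible because each diet has 1 library and the diets share only replicate number 1. Of the recomputed shares and counts, 70 stayed within 1.5 times or the interval of the reported value and 16 moved. With gated cells thinned to 1000 UMIs, 39 genes were at least 2-fold higher and 28 lower in WD, against 182 and 176 as reported. With a minimum of 10 UMIs these counts were 476 and 382, and with 50 UMIs 47 and 40, since more or fewer genes are then read. With gated cells of the cluster that holds most of them, 117 genes were lower in WD, and the cause was not tested. With the gate on counts thinned to 1000 UMIs the chow share was 1.45%. Against C1q macrophages, 43 genes were higher and 64 lower at a fold of 4, and 28 and 50 after thinning. Against Cd209a dendritic cells, 56 were higher and 22 lower at a fold of 4, and 30 and 11 after thinning. Of 479 list medians recomputed under the alternatives, 466 stayed within the median interval of their genes, but 87 changed sign, 6 of these among the 89 whose reported median was at least 0.5 either way. The chitinase-like list, at 2.87 in all gated cells, was -0.53 with a gate sum of at least 2, -0.59 in the main cluster and -0.91 without the top cell of each gene. The chow sums rest on 19 S100a8-low cells, which limits their precision. Leaving out the S100a8-rich cells was chosen after seeing the data.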

Other observations

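Metallothionein genes differed between the classes. Mt2 held 0 UMIs in S100a8-low cells of either library, against 307 UMIs in WD and 144 in chow C1q macrophages, and 116 and 100 UMIs in Cd209a dendritic cells. This was at least 27.3-fold lower than in WD macrophages and at least 16.7-fold lower than in chow macrophages. Of 10 measured interferon response genes, 0 were at least 2-fold higher or lower in WD in S100a8-low cells, with a median log2 ratio of -0.12. Hif1a, the oxygen-regulated transcription factor, held 74 UMIs in WD and 11 in chow S100a8-low cells, a ratio of 2.41 (1.27 to 5.04). The resistin-like gene Retnla held 80 UMIs in WD and 3 in chow, and 79 of the WD UMIs lay in 1 cell.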
